A study of Mus musculus with 12 samples.

Results

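The genes described here are 8 members of the Th17 program: the transcription factors Rora and Ahr, the cytokines Il17a, Il17f and Il22, and the receptors Il23r, Ccr6 and Il1r1. They were named as a list by a rule that holds no measured value, but with earlier results of these data known. Their values were read from a table of 35275 mouse genes measured by RNA-Seq in CD4+ T cells of 12 mice. All 8 are in the table, where a level is given in FPKM, which counts fragments relative to transcript length and library total. Only 4 of them, Rora, Ahr, Ccr6 and Il1r1, averaged 0.5 FPKM or more across all mice and were tested. Il17a, Il17f, Il22 and Il23r lay under that filter, and their values are given as fragments.

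Each of 4 groups held 3 female mice, aged 9 to 12 weeks by the paper's figure legend and 9 weeks by its RNA-Seq methods. The B6 groups were C57BL/6 mice, and the SLE123 groups were lupus-prone mice of the B6.NZMSle1/Sle2/Sle3 strain, in which the Sle1, Sle2 and Sle3 regions of the NZM2410 strain were bred onto B6. In each strain, one group received the anti-CD45RB antibody MB23G2 as 5 injections of 100 μg from day 0 to day 7, and the other was left untreated. CD4+ T cells were enriched by negative magnetic sorting, so every other cell that escaped the depletion stays in the sample. The paper reports that nearly all cells were CD4+ T cells after this sort. The methods also describe a division into CD25+ and CD25- cells, and no title names such a fraction. The series asks how a tolerizing antibody course changes the CD4+ T cell transcriptome in healthy and in lupus-prone mice.

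Th17 cells are a branch of CD4+ T helper cells that arise under TGF-β with IL-6, expand under IL-1 and IL-23, and are known for guarding mucosal surfaces and for driving tissue inflammation. Retinoid-related orphan receptors switch the program on, AHR senses small aromatic ligands and is needed for IL-22, and CCR6 carries the cells toward CCL20 in inflamed tissue. Several of these genes are shared with gamma-delta T cells and group 3 innate lymphoid cells, and CCR6 is also carried by B cells. In bulk RNA, fewer cells of a type and less RNA per cell cannot be told apart.

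Libraries held 13563594 to 23642949 fragments. Immunoglobulin genes took 0.334 to 1.49% of the summed FPKM in B6 mice and 11.4 to 40.5% in SLE123 mice, with the highest share in SLE123 untreated replicate 3. All 6 B6 libraries and SLE123 treated replicate 1 held liver transcripts, with summed levels over 7 genes of 41.4 to 48.8 FPKM in B6. The defining genes of CD4+ T cells were high in every library, with Cd4 itself at 237 to 327 FPKM. Each library came from 1 mouse, so the p-values given here measure the spread between mice.

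The cytokine and receptor genes lie at separate loci, apart from Il17a and Il17f, which are neighbours on chromosome 1. In GRCm38, Il17a (ENSMUSG00000025929) is at chr1:20730905-20734496 on the plus strand, and Il17f (ENSMUSG00000041872) is at chr1:20777146-20790617 on the minus strand, with 42.6 kb between them. Il22 (ENSMUSG00000074695) is at chr10:118204942-118210047, Il23r (ENSMUSG00000049093) at chr6:67422932-67491855, Ccr6 (ENSMUSG00000040899) at chr17:8236043-8257141 and Il1r1 (ENSMUSG00000026072) at chr1:40225080-40317257. Rora (ENSMUSG00000032238) spans chr9:68653786-69388246, and Ahr (ENSMUSG00000019256) spans chr12:35497974-35535038. An antisense transcript overlaps Rora, and since no source states whether the libraries kept strand, reads of the pair cannot be told apart.

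RORα and its relatives bind DNA at the half-site AGGTCA, so the 250 bases before each annotated start were searched for these letters on either strand. RefSeq windows (GRCm38.p6) were found for 7 of the 8 genes, Ahr having none, and 4 of these 7 genes held the half-site, in 4 of their 9 windows. Over all 32851 RefSeq windows of the same length, 14.0% held it. The 4 windows are shown because they belong to both IL-17 cytokines and to the receptors Il23r and Ccr6. They are written 5′ to 3′ on the strand of the gene, with the half-site in capitals (AGGTCA, or TGACCT where it lies on the other strand).
Il17a: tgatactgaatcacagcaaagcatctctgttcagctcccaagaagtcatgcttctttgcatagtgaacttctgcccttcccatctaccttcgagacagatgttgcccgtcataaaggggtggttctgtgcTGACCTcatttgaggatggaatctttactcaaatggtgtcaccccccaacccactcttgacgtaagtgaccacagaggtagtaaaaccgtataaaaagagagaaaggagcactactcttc
Il17f: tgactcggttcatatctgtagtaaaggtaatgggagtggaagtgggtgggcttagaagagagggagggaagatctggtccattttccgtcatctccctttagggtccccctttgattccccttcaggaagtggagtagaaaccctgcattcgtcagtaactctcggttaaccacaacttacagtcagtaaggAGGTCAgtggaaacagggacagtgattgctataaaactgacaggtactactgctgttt
Il23r: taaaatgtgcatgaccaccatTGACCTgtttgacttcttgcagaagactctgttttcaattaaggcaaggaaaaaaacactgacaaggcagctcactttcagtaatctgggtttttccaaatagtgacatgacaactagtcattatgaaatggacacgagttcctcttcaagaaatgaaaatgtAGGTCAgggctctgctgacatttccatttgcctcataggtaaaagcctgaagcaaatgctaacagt
Ccr6: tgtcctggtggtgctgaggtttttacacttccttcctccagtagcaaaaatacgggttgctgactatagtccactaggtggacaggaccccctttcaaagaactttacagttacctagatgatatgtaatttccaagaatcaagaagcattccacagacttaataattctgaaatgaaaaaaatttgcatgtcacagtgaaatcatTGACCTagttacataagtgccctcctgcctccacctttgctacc
These windows are chr1:20730655-20730904 (plus strand) for Il17a, chr1:20784271-20784520 (minus strand) for Il17f, chr6:67491856-67492105 (minus strand) for Il23r and chr17:8235793-8236042 (plus strand) for the first of 2 annotated starts of Ccr6. The half-site begins 120 bases before the RefSeq start of Il17a, 58 before that of Il17f and 44 before that of Ccr6, and Il23r holds it at 229 and at 66 bases. RefSeq starts can differ from the gene coordinates given above. The window of Il17f lies inside its gene span, and that of Il22 runs past its gene start. No window of Rora, Il1r1 or Il22 held these letters, nor did the second start of Ccr6. A match of letters is a description of the window and not evidence of binding.

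The signature cytokines of the program were at the edge of detection. Il17a, which encodes the cytokine that gives Th17 cells their name, was seen as 1 fragment in B6 treated replicate 5 (0.0508 FPKM) and as 0 fragments in the other 11 libraries. A count of 0 allows up to 0.108 to 0.189 FPKM of Il17a, the level of 3 fragments in the deepest and the shallowest library. Il22, the cytokine that acts on epithelium, was seen as 1 fragment in B6 untreated replicate 4 (0.0498 FPKM), as 1 fragment in SLE123 treated replicate 3 (0.0491 FPKM) and as 0 elsewhere. Il22 has a near-identical copy, Iltifb, whose transcript matched it at 97.3% identity over 1111 bases, so how its reads were divided is uncertain. No difference between groups in Il17a or Il22 was detectable at this depth.

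Il17f, the close relative of Il17a, was the only one of the 3 cytokines seen in most mice. B6 untreated mice had 4, 10 and 4 fragments (0.21, 0.469 and 0.211 FPKM for replicates 3, 4 and 5), and B6 treated mice had 1, 5 and 4 (0.0626, 0.259 and 0.202 FPKM for replicates 1, 3 and 5). SLE123 untreated mice had 2, 0 and 3 fragments (0.103, 0 and 0.108 FPKM for replicates 1, 2 and 3), and SLE123 treated mice had 1, 2 and 2 (0.0504, 0.0901 and 0.0926 FPKM). The 3 B6 untreated mice all lay above the SLE123 untreated mice, and the untreated groups did not overlap for 42.5% of all 23230 genes above 0. Mean levels of 0.297 ± 0.149 and 0.0701 ± 0.0608 FPKM (SD, n = 3 each) in untreated B6 and SLE123 mice differed with an exact permutation p of 0.1 (two-sided), which is the smallest that 3 mice against 3 can give. The best stretch of likeness between the Il17a and Il17f transcripts was 69.8% identity over 212 bases, far from a near-identical copy.

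Il23r, the receptor chain that maintains Th17 cells under IL-23, was also rare. It had 5, 5 and 1 fragments in B6 untreated mice (0.125, 0.111 and 0.025 FPKM) and 7, 4 and 9 in B6 treated mice (0.207, 0.0982 and 0.215 FPKM). It had 3, 4 and 4 fragments in SLE123 untreated mice (0.073, 0.086 and 0.068 FPKM) and 5, 10 and 12 in SLE123 treated mice (0.119, 0.213 and 0.263 FPKM). Treated SLE123 mice all lay above untreated SLE123 mice, whereas the B6 groups overlapped. The exact permutation p (two-sided) was 0.1 in SLE123, the smallest possible, and 0.3 in B6. With no filter on low values, limma gave an adjusted p of 0.541 for Il23r in SLE123 and of 0.366 in B6. Of all 23230 genes above 0, 14.8% did not overlap between the SLE123 groups, so a single separated gene is near the background.

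**Figure D1:**
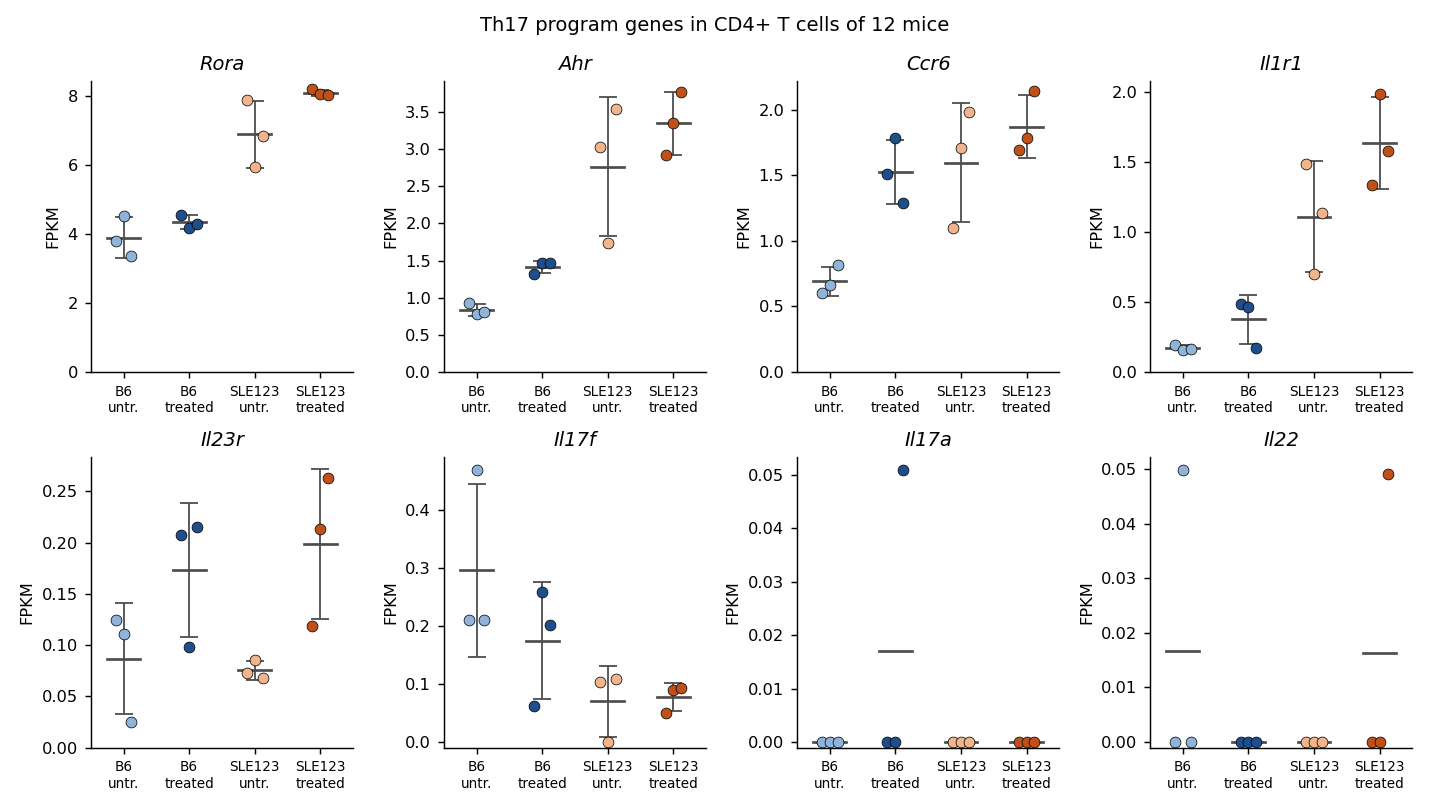
FPKM of the 8 Th17 program genes (y axis, own scale in each panel) in the 12 mice, grouped by strain and treatment on the x axis, with horizontal bars for the mean of 3 mice and error bars for the SD, which are left out for Il17a and Il22. Rora, Ahr, Ccr6 and Il1r1 lie higher in SLE123 untreated than in B6 untreated mice without overlap, while Il17a and Il22 are listed at 0 in all but 1 and 2 libraries.

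The 4 genes that passed the filter formed an order of levels per transcript length, which FPKM gives. Over the 12 mice Rora averaged 5.81 FPKM, Ahr 2.09, Ccr6 1.42 and Il1r1 0.824. In B6 untreated mice Ahr and Ccr6 were neighbours at 0.837 ± 0.0796 and 0.692 ± 0.11 FPKM (SD, n = 3 each), and their mice overlapped. Their order turned in B6 treated mice, with Ccr6 at 1.52 ± 0.244 and Ahr at 1.41 ± 0.0839 FPKM (SD, n = 3 each), and the mice again overlapped. Ahr and Ccr6 also overlapped in untreated SLE123 mice, and Ccr6 and Il1r1 overlapped in both SLE123 groups. Rora lay above the other genes in all 12 mice.

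Ccr6 and Ahr were higher in B6 mice given anti-CD45RB than in untreated B6 mice. This comparison asks what goes with the antibody course in mice that are not prone to lupus. Of the 4 genes tested, 2 were called higher and 0 lower, where 14.9% of all 13115 genes tested were called and 8.74% were called higher. The 4 genes had a median log2 fold change of 0.31, against -0.0024 over all genes tested. All log2 fold changes are on the log2(FPKM + 1) scale, which understates the change of a gene at a low level.

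Ccr6, the receptor for CCL20, stood at 0.6, 0.662 and 0.814 FPKM in B6 untreated mice and at 1.51, 1.78 and 1.29 FPKM in B6 treated mice. All treated mice lay above all untreated mice, as for 19.4% of all genes tested, with 36 to 51 fragments against 17 to 23. The ratio of mean FPKM was 2.2, and the log2 fold change was 0.57 ± 0.102 (SE; adjusted p = 0.015, limma). The call was lost without B6 untreated replicate 3 (adjusted p = 0.0547, limma) and without B6 untreated replicate 4 (adjusted p = 0.0613, limma).

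Ahr, the ligand-activated receptor, stood at 0.927, 0.777 and 0.806 FPKM in B6 untreated mice and at 1.32, 1.46 and 1.46 FPKM in B6 treated mice. The groups did not overlap, and the spread within each was small. The ratio of means was 1.69, and the log2 fold change was 0.39 ± 0.0782 (SE; adjusted p = 0.0214, limma). The call was lost when all 12 mice shared 1 estimate of the spread (adjusted p = 0.182, limma). It was also lost without B6 treated replicates 3 or 5 (adjusted p = 0.0588 and 0.0692, limma) and without B6 untreated replicates 4 or 5 (adjusted p = 0.0778 and 0.0564, limma).

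Il1r1 and Rora did not pass the test in B6. Il1r1, the signalling receptor for IL-1, stood at 0.193, 0.16 and 0.167 FPKM in untreated mice and at 0.489, 0.468 and 0.172 FPKM in treated mice. Treated replicates 1 and 3 lay above the untreated mice and replicate 5 lay among them, and the log2 fold change was 0.22 ± 0.11 (SE; adjusted p = 0.214, limma). Rora stood at 3.81, 4.53 and 3.37 FPKM in untreated mice and at 4.57, 4.17 and 4.31 FPKM in treated mice. The Rora groups overlapped, with a log2 fold change of 0.13 ± 0.0998 (SE; adjusted p = 0.4, limma) and a 95% interval of -0.1 to 0.37.

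Markers of other cells moved with Ccr6 and Ahr in B6 mice. Over all genes tested in this comparison, 8.74% were called higher and 6.12% lower. Of 8 B cell markers, 7 were tested and 6 were called higher in treated B6 mice, and the summed level of the list went from 6.28 to 7.48 FPKM in untreated mice to 26.2 to 35.1 FPKM in treated mice, with no marker at 0. Of 7 gamma-delta T cell markers 6 were in the table and 5 were tested, and all 5 were called higher, with summed levels of 41.2 to 53.1 FPKM in untreated and 83.1 to 92.4 FPKM in treated mice.

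Further lists rose in treated B6 mice as well. All 5 tested myeloid markers of 8 were called higher (summed 4.39 to 9.3 FPKM against 48.7 to 114 FPKM), as were 5 of 7 basophil markers (5.07 to 6.99 against 18.2 to 36.1 FPKM) and 5 of 7 markers of memory and effector T cells (288 to 308 against 506 to 586 FPKM). Of the 4 genes listed for group 3 innate lymphoid cells, Ncr1 was called higher (0.259 to 0.499 against 5.35 to 6.4 FPKM). Cxcr5 was called lower (7.75 to 11.3 against 4.65 to 7.14 FPKM), and the summed list overlapped (17.5 to 22.6 against 20.7 to 23.8 FPKM). This list went in both directions and is not a count of group 3 cells. Of 11 CD4 T cell markers, 6 were called lower and 0 higher. The part of these cells in the change of Ccr6 and Ahr was not tested.

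**Figure D2:**
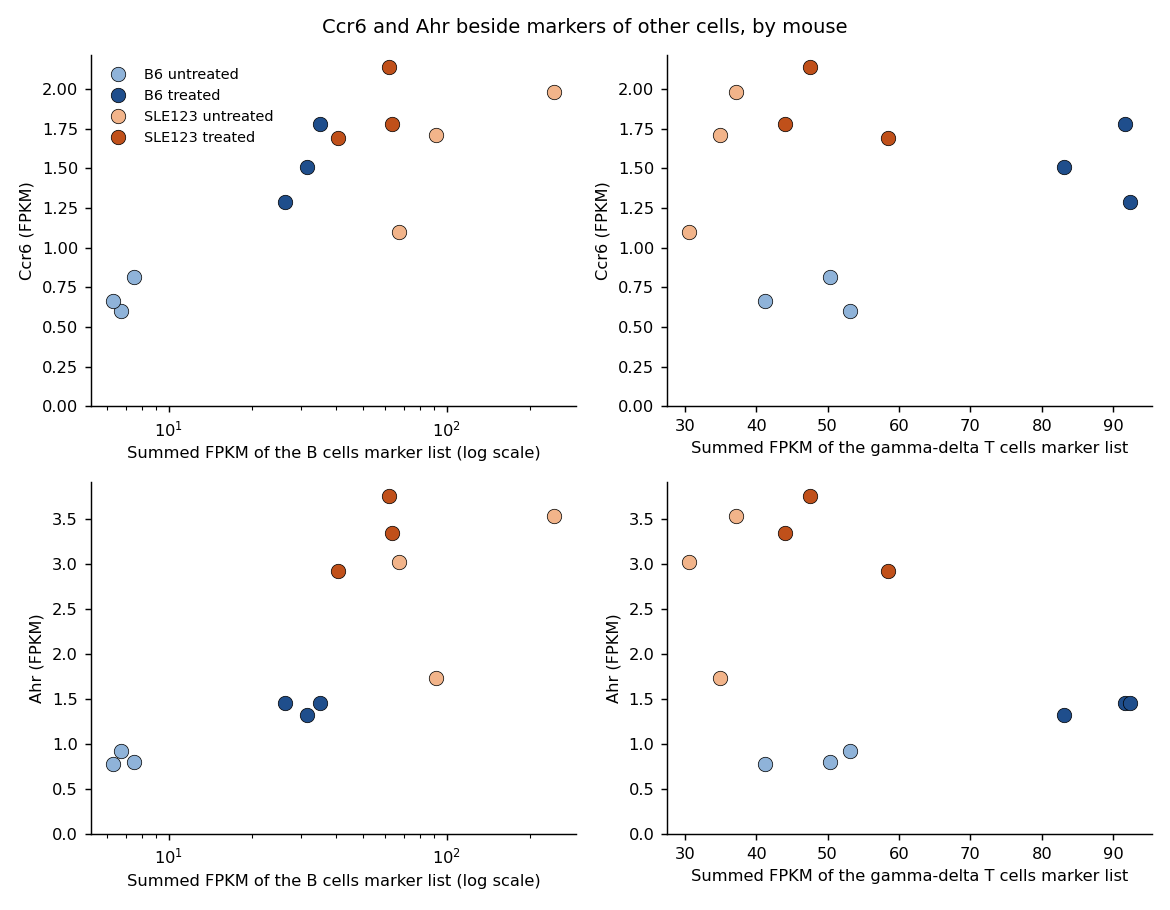
FPKM of Ccr6 (upper panels) and Ahr (lower panels) on the y axis against the summed FPKM of the B cell markers (left, log scale) and of the gamma-delta T cell markers (right) in the same mouse, 1 point per mouse coloured by group. B6 treated mice lie above B6 untreated mice on all axes, and SLE123 mice lie at 1.1 to 2.14 FPKM of Ccr6 and 1.73 to 3.76 FPKM of Ahr at gamma-delta marker levels of 30.6 to 58.5 FPKM.

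In SLE123 mice, the 4 genes tested had no called change after anti-CD45RB. This is the same contrast in the lupus-prone strain, and limma called 0 of the 4 members, where 0.0381% of all genes tested were called. At an unadjusted p under 0.05 the count was also 0 of 4, against 10.4% of all genes tested, and voom on the recovered fragments called 0 of 4. The median log2 fold change of the 4 genes was 0.22, against 0.038 over all genes tested.

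Rora in SLE123 mice stood at 7.9, 5.95 and 6.85 FPKM untreated and at 8.2, 8.07 and 8.04 FPKM treated, so that the treated mice lay just above all untreated mice, as for 13.7% of all genes tested. Its log2 fold change of 0.21 ± 0.107 (SE) did not pass the test (adjusted p = 0.482, limma). Ahr stood at 3.02, 1.73 and 3.54 FPKM untreated and at 2.92, 3.35 and 3.76 FPKM treated, overlapping throughout, with a log2 fold change of 0.24 ± 0.198 (SE; adjusted p = 0.629, limma). Untreated replicate 2 was the lowest SLE123 mouse for Rora, Ahr and Il1r1.

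Ccr6 in SLE123 mice stood at 1.1, 1.71 and 1.98 FPKM untreated and at 1.69, 1.78 and 2.14 FPKM treated, with a log2 fold change of 0.16 ± 0.154 (SE; adjusted p = 0.675, limma). Il1r1 stood at 1.49, 0.698 and 1.14 FPKM untreated and at 1.34, 1.99 and 1.58 FPKM treated, with a log2 fold change of 0.33 ± 0.171 (SE; adjusted p = 0.484, limma). Both genes overlapped between the groups. The summed B cell markers were at 67.4 to 244 FPKM in untreated and 40.6 to 63.7 FPKM in treated SLE123 mice, with 0 of 7 tested called. Gamma-delta T cell markers were at 30.6 to 37.2 FPKM untreated and 44.1 to 58.5 FPKM treated, with 0 of 5 tested called. Of 7 basophil markers, 2 were called lower and 0 higher. The part of these cells in the levels of the 4 genes was not tested. The 95% intervals of the log2 fold changes in SLE123 ran from -0.2 to 0.52 for Ccr6, from -0.23 to 0.7 for Ahr, from -0.042 to 0.47 for Rora and from -0.072 to 0.74 for Il1r1. Rises of the size seen in B6 lay inside them except for that of Ccr6 (0.57).

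Whether the strains responded differently was tested as an interaction on all 12 mice, the response in SLE123 minus that in B6. None of the 4 genes was called by limma, at an unadjusted p under 0.05 the count was 0 (25.1% of all genes tested), and voom on the recovered fragments called 0, where 3.64% of all genes tested were called. The difference was -0.42 ± 0.19 (SE; adjusted p = 0.2, limma) for Ccr6, -0.16 ± 0.225 (adjusted p = 0.695) for Ahr, 0.079 ± 0.146 (adjusted p = 0.768) for Rora and 0.11 ± 0.216 (adjusted p = 0.783) for Il1r1. The sign for Il1r1 turned with a pseudocount of 0.1 FPKM (-0.16) and with voom (-0.35). For Ccr6, leaving out SLE123 untreated replicate 1, the SLE123 mouse with the lowest Ccr6, gave -0.56 (adjusted p = 0.0305, limma). A difference between the strains in the response of Ccr6 or Ahr is therefore not shown, although both were called in B6 and neither in SLE123.

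Rora, Ahr, Ccr6 and Il1r1 were all higher in untreated SLE123 than in untreated B6 mice. This comparison asks how the lupus-prone strain differs before any treatment, and all 4 genes tested were called higher, where 42.9% of all genes tested were called and 22.8% were called higher. Their median log2 fold change was 0.76, against -0.025 over all genes tested. Ahr was 2.76 ± 0.936 FPKM in SLE123 and 0.837 ± 0.0796 FPKM in B6 (SD, n = 3 each), a ratio of 3.3 and a log2 fold change of 1.0 ± 0.192 (SE; adjusted p = 0.00552, limma).

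Il1r1, which passed the filter only through the SLE123 mice, showed the largest ratio of the 4. It was 1.11 ± 0.397 FPKM in untreated SLE123 and 0.173 ± 0.017 FPKM in untreated B6 mice (SD, n = 3 each), a ratio of 6.4, with 63 to 130 fragments against 13 to 15. Its log2 fold change was 0.83 ± 0.158 (SE; adjusted p = 0.00537, limma) with a pseudocount of 1 FPKM, and 2.09 with a pseudocount of 0.1 FPKM. Rora was 6.9 ± 0.974 against 3.9 ± 0.585 FPKM (SD, n = 3 each), a ratio of 1.77 and a log2 fold change of 0.69 ± 0.134 (SE; adjusted p = 0.00584, limma).

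Ccr6 was 1.6 ± 0.447 FPKM in untreated SLE123 and 0.692 ± 0.11 FPKM in untreated B6 mice (SD, n = 3 each), a ratio of 2.31 and a log2 fold change of 0.6 ± 0.154 (SE; adjusted p = 0.0173, limma). Its call was lost without B6 untreated replicate 3 (adjusted p = 0.064, limma) or replicate 4 (adjusted p = 0.0605, limma). For each of the 4 genes the lowest untreated SLE123 mouse lay above the highest untreated B6 mouse, as for 29.1% of all genes tested. Without SLE123 untreated replicate 3, which had the highest immunoglobulin share, all 4 were still called.

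Among treated mice, 3 of the 4 genes were called higher in SLE123, where 52.1% of all genes tested were called and 29.6% were called higher. Here too, Il1r1 was tested only because the SLE123 mice carried it over the filter. Rora was 8.1 ± 0.0865 against 4.35 ± 0.205 FPKM (SD, n = 3 each), with a log2 fold change of 0.77 ± 0.0563 (SE; adjusted p = 9.56e-05, limma). Ahr was 3.34 ± 0.421 against 1.41 ± 0.0839 FPKM (0.84 ± 0.0936 SE on the log2 scale; adjusted p = 0.000444, limma), and Il1r1 was 1.64 ± 0.328 against 0.376 ± 0.177 FPKM (0.94 ± 0.141 SE; adjusted p = 0.00161, limma). Ccr6, at 1.87 ± 0.239 against 1.52 ± 0.244 FPKM, overlapped between the strains, with a log2 fold change of 0.19 ± 0.107 (SE; adjusted p = 0.184, limma) and a 95% interval of -0.068 to 0.44. Without any 1 of these 6 mice the count of called genes was again 3. The strain and treatment comparisons share groups, so their values stand side by side and are not independent.

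**Figure D3:**
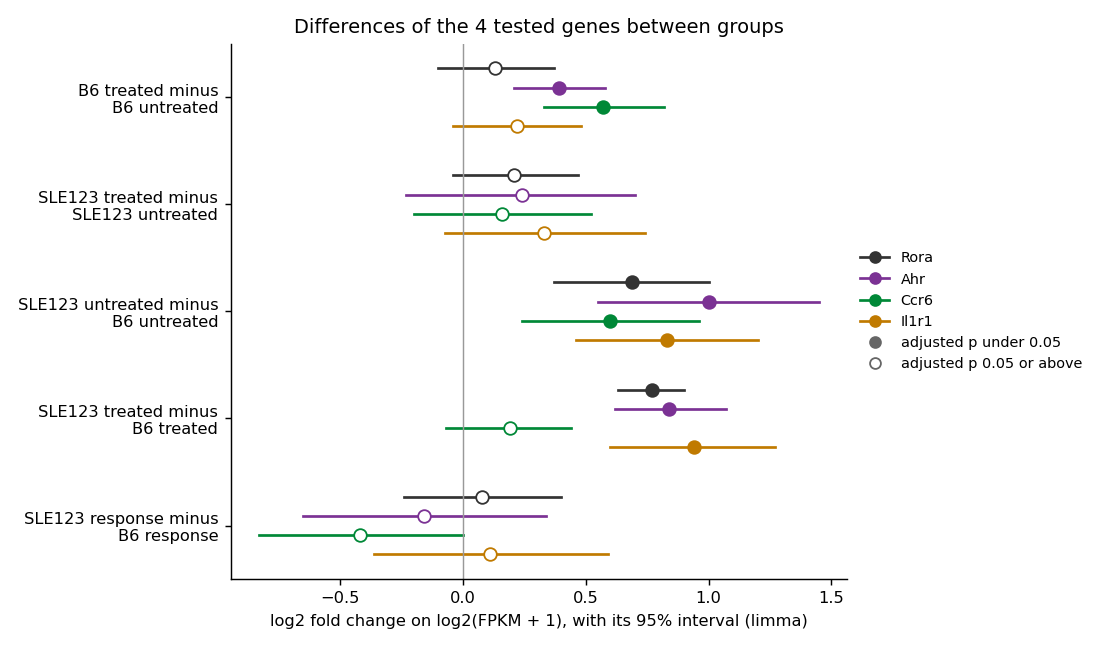
Log2 fold change on the log2(FPKM + 1) scale (x axis) of Rora, Ahr, Ccr6 and Il1r1 in the 4 comparisons and for the response in SLE123 minus that in B6 (y axis), with 95% intervals from limma and filled points where the adjusted p is under 0.05. Both strain comparisons hold filled points to the right of 0 for Rora, Ahr and Il1r1, while Ccr6 and Ahr are the filled points of the B6 treatment comparison.

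The strain differences rest on libraries that differ in composition. Rescaled to TPM, in which each library sums to the same total, the median of all genes tested moved to -0.38 in untreated mice and to -0.14 in treated mice on the log2 scale, and the genes called in untreated mice split into 1914 higher and 5974 lower, against 2990 and 2631 with FPKM. The split in treated mice was 2442 and 4480 with TPM, against 3881 and 2955. With TPM, Rora in untreated mice was no longer called (log2 fold change 0.4; adjusted p = 0.088, limma), whereas Ahr, Ccr6 and Il1r1 kept their calls in untreated mice and Rora, Ahr and Il1r1 in treated mice. When immunoglobulin genes were left out of the TPM total, an alternative chosen after seeing the data, Rora in untreated mice was called again (log2 fold change 0.86; adjusted p = 0.00807, limma).

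Markers of other cells differed between the strains too, where 22.8% of all genes tested were called higher and 20.1% lower in untreated SLE123 mice. In untreated mice, 7 of 7 tested B cell markers (summed 67.4 to 244 against 6.28 to 7.48 FPKM), 5 of 5 plasma cell markers and 7 of 7 memory and effector T cell markers (726 to 752 against 288 to 308 FPKM) were called higher in SLE123. Regulatory T cell markers were called higher for 5 of 6 (228 to 231 against 56.2 to 71.8 FPKM), and all 4 naive T cell markers were called lower (550 to 958 against 1507 to 1578 FPKM). Of the 4 genes listed for group 3 innate lymphoid cells, Cxcr5, Kit and Tnfsf11 were called higher. Ncr1 was not called (0.202 to 1.1 against 0.259 to 0.499 FPKM). The summed list (61.3 to 71.5 against 17.5 to 22.6 FPKM) was mostly Cxcr5 (33.4 to 43.4 against 7.75 to 11.3 FPKM) and Tnfsf11 (19.1 to 21.7 against 6.09 to 8.11 FPKM). It is not a count of these cells. Basophil markers were called higher for 6 of 7 (101 to 114 against 5.07 to 6.99 FPKM) and myeloid markers for 4 of 5 tested (39.3 to 88.2 against 4.39 to 9.3 FPKM). Gamma-delta T cell markers were called lower for 3 of 5 (30.6 to 37.2 against 41.2 to 53.1 FPKM). Of the 7 liver genes, 4 (Ttr, Serpina1a, Serpina1b and Fgb) were at 0 in all 3 untreated SLE123 mice, and 6 of 6 tested were called lower. The part of these cells and transcripts in the strain differences of the Th17 genes was not tested.

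Over the 12 mice, the levels of Rora, Ahr and Il1r1 followed each other closely on the log2(FPKM + 1) scale. Pearson's r across mice was 0.954 for Rora and Il1r1, 0.947 for Il1r1 and Ahr and 0.933 for Rora and Ahr. With Ccr6, r was 0.762 for Ahr, 0.682 for Il1r1 and 0.63 for Rora. The mice fall into groups by strain, so these values describe mainly the group levels and no test was made of them.

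Unnamed and predicted genes, pseudogenes, mitochondrial genes and segments of immunoglobulins and T cell receptors were left out of the next ranking. By the same measure the genes most like each member were named, among the other genes tested. For Rora they were Trim30d (r = 0.981), Zfp964 (0.976) and Mastl (0.975), and for Ahr they were Raph1 (0.986), Hspa4l (0.985) and Gsap (0.985). For Il1r1 they were Cd274 (0.979), which encodes the checkpoint ligand PD-L1, Phlpp1 (0.978) and Cd109 (0.977). Ccr6 was most like Tmem198 (0.963), Trim46 (0.962) and Tmem184b (0.951). Trim46, for example, had mean levels of 0.894 and 1.79 FPKM in untreated and treated B6 mice and of 1.85 and 2.46 FPKM in untreated and treated SLE123 mice.

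Beyond the 8 genes, a wider list of 52 genes that act in or against the Th17 program was read in the same fits. All 52 were in the table and 46 were tested. In B6 mice, 9 were called higher and 5 lower after anti-CD45RB (8.74% and 6.12% of all genes tested), and in SLE123 mice limma called 0 of 46 (0.0381% of all genes tested), 11 had an unadjusted p under 0.05 (10.4% of all genes tested) and voom on the recovered fragments called 0. The B6 count was 6 with no filter on low values, 6 without B6 treated replicate 5, 7 without B6 untreated replicate 3 and 6 without B6 untreated replicate 4. The median log2 fold change of the list was 0.043 in B6 and 0.14 in SLE123, against -0.0024 and 0.038 over all genes tested.

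Among transcription factors that act for the program, 2 of 11 were called higher and 0 lower with treatment in B6 (8.74% and 6.12% of all genes tested). Bhlhe40, which supports cytokine production by Th17 cells, went from 6.55 to 7.47 FPKM in untreated to 10.7 to 11.8 FPKM in treated B6 mice (log2 fold change 0.63; adjusted p = 0.00266, limma). Batf, an AP-1 factor needed early in the program, went from 24.7 to 25.5 FPKM to 27.6 to 33.1 FPKM (0.26; adjusted p = 0.0426, limma). Between untreated strains, 6 of the 11 were called higher in SLE123 and 1 lower (22.8% and 20.1% of all genes tested). Maf, a factor that drives IL-10 and IL-21, was at 9.95 to 13.1 FPKM in B6 and at 55.2 to 61.7 FPKM in SLE123 mice (2.24; adjusted p = 1.62e-05, limma). Hif1a, the oxygen-regulated factor that favours Th17 over regulatory T cells, was at 25.5 to 28.2 FPKM in B6 and at 64 to 88.4 FPKM in SLE123 mice (1.5; adjusted p = 0.000142, limma).

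Receptors of the list were called in both directions. Of 9 receptor genes tested in B6, 1 was called higher (Il18r1, the IL-18 receptor chain, 0.52) and 1 lower (Il6st, the shared signalling chain of the IL-6 receptor, -0.42) with treatment. Over all genes tested these shares were 8.74% and 6.12%. Between untreated strains, 1 of the 9 was called higher and 3 lower in SLE123 (22.8% and 20.1% of all genes tested). Of 6 cytokine genes 3 were tested, and all 3 were called higher in untreated SLE123 mice (22.8% of all genes tested). Il10, which restrains inflammation, was at 0.211 to 0.901 FPKM in untreated B6 and at 8.78 to 14.1 FPKM in untreated SLE123 mice (3.02; adjusted p = 8.72e-05, limma), and Il21, a cytokine of follicular helper and Th17 cells, was at 0.928 to 2.38 and at 23 to 34.7 FPKM (3.5; adjusted p = 6.31e-05, limma). Tnf was called higher at 0.29, a direction that turned with TPM. Ccl20, the ligand of CCR6, was listed at 0 in all 12 libraries.

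The group with the most calls in B6 was that of genes known from Th17 expression profiles, with 6 of 11 higher and 1 lower (8.74% and 6.12% of all genes tested). Tmem176a and Tmem176b, neighbouring membrane proteins also known in myeloid cells, went from 2.1 to 2.69 and from 2.78 to 3.35 FPKM in untreated to 4.81 to 6.89 and 6.67 to 10.4 FPKM in treated B6 mice (1.07 and 1.12; adjusted p = 0.00487 and 0.00676, limma). Capg, an actin-capping protein of macrophages and activated T cells, went from 27.9 to 30.8 FPKM to 40.9 to 47.2 FPKM (0.59; adjusted p = 0.00271, limma). Serpinb1a (0.67), Ltb4r1 (0.69) and Sgk1 (0.21) were also called higher and Abcb1b lower (-0.71). In treated B6 mice the myeloid markers rose as given above, and their part in these changes was not tested.

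Restraints of the program were called in both directions between the strains and lower with treatment in B6. In B6, 0 of 12 tested were called higher and 2 lower with treatment (8.74% and 6.12% of all genes tested). The 2 were Il27ra (-0.14) and Egr2 (-0.66), a factor of anergic and antigen-experienced T cells that fell from 5.7 to 6.23 FPKM to 2.83 to 4.22 FPKM. Foxp3, the factor of regulatory T cells, had 3.93 to 6.65 FPKM in untreated and 7.65 to 8.54 FPKM in treated B6 mice (log2 fold change 0.56), which did not pass the test (adjusted p = 0.0536, limma). In SLE123 it had 12.7 to 15.4 FPKM untreated and 21.9 to 22.9 FPKM treated, with a log2 fold change of 0.65 that did not pass either (adjusted p = 0.0989, limma). Between untreated strains, 4 of the 12 were called higher and 4 lower in SLE123 (22.8% and 20.1% of all genes tested). Among the higher was Nfil3, a repressor that ties the program to the circadian clock (2.53, adjusted p = 1.21e-05, limma). Among the lower were Foxo1 (-0.97) and Ets1 (-0.58).

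Between untreated strains, 19 of the 46 genes were called higher and 10 lower in SLE123 (22.8% and 20.1% of all genes tested), and between treated strains 25 higher and 8 lower (29.6% and 22.5%). With TPM these splits were 15 and 18 in untreated and 21 and 10 in treated mice, so the balance of directions in untreated mice depends on the scaling. Of the genes called with FPKM, only Tnf in untreated mice turned its sign with TPM. The median log2 fold change of the list was 0.065 in untreated and 0.32 in treated mice, against -0.025 and 0.028 over all genes tested.

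**Figure D4:**
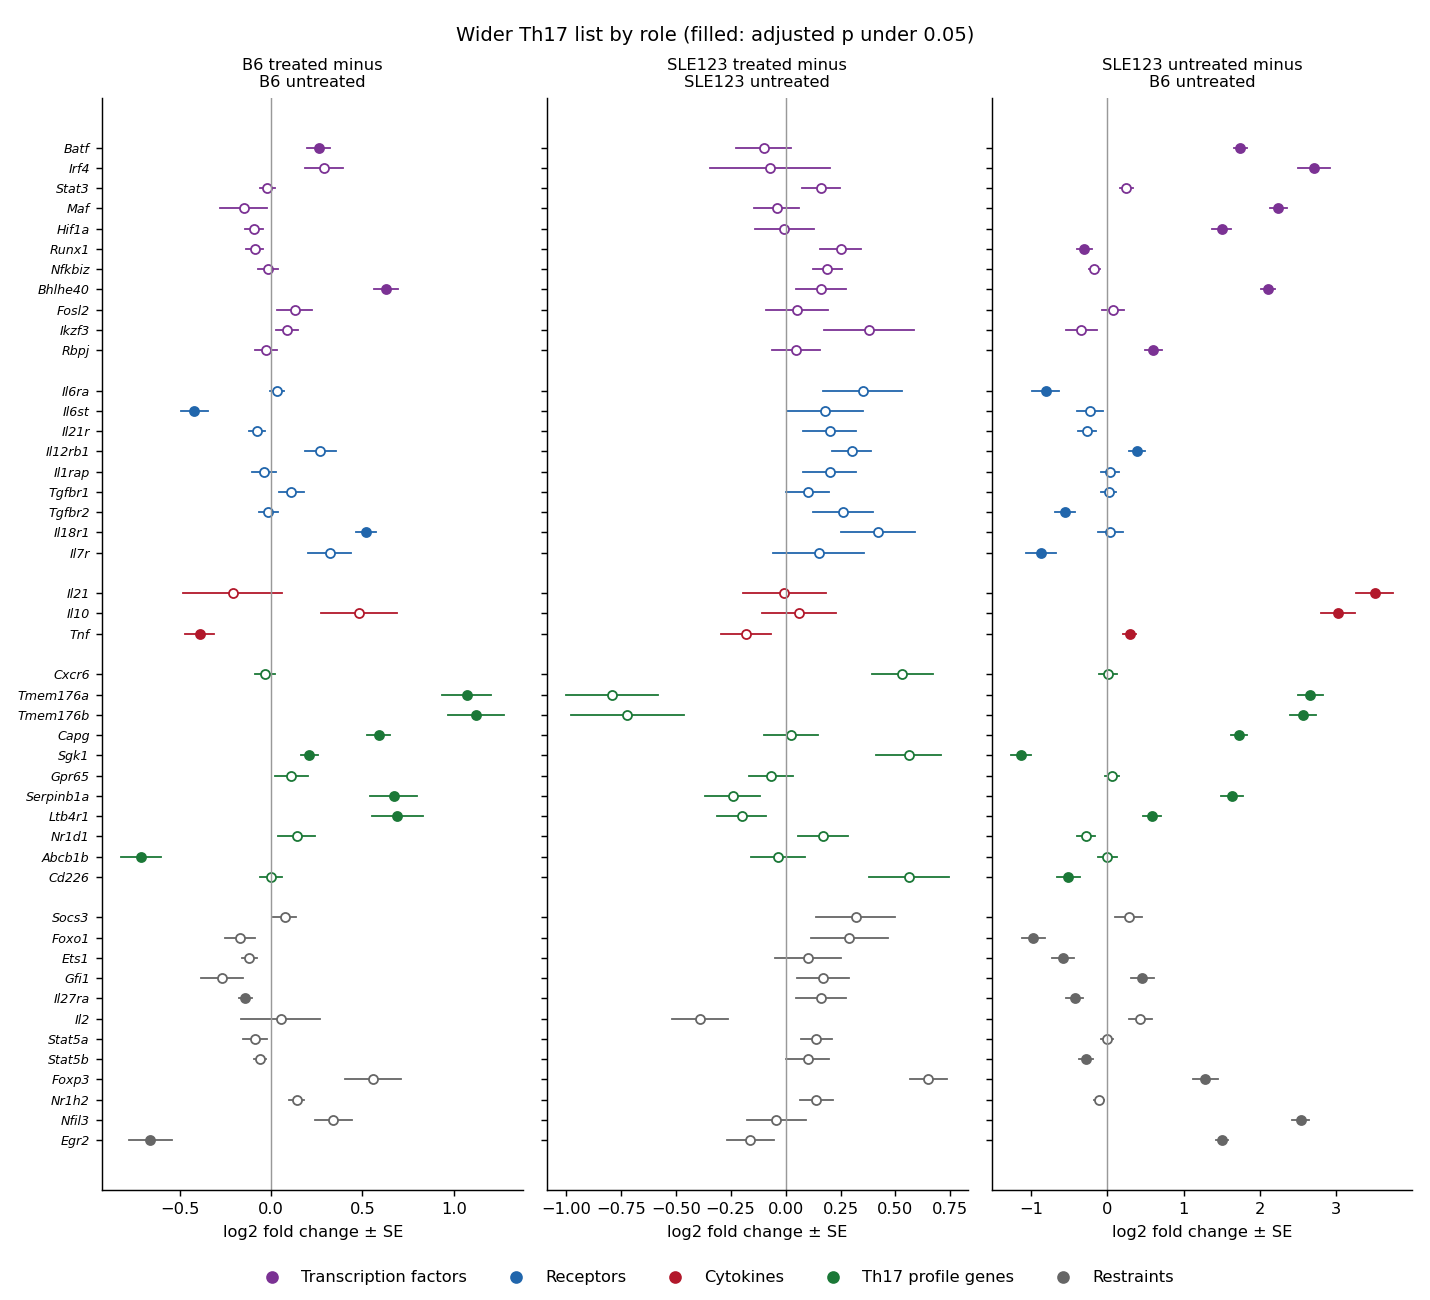
Log2 fold change ± SE on the log2(FPKM + 1) scale (x axis, own scale in each panel) of the 46 tested genes of the wider Th17 list (y axis, coloured by role) for treatment in B6, treatment in SLE123 and untreated SLE123 minus untreated B6, with filled points where the adjusted p is under 0.05. The panel for B6 treatment holds 14 filled points, that for SLE123 treatment 0 and that for untreated strains 29.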

How the data were processed

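RNA-Seq was performed on CD4+ T cells of 12 mice in 4 groups of 3. The authors deposited FPKM values per Ensembl gene, with no counts beside them, and the submitters' processing notes name STAR, CASAVA 1.8 and mm10. Whether strand was kept is not given in the sources used here. Symbols were taken from GENCODE M21 for 34490 of 35275 IDs. For 100.0% of 23230 genes above 0, a length was found at which the FPKM values were whole fragments (within 1e-05, wider at high counts). The annotated exon length did so for 6150 genes, and for the others the length was searched. This gave fragments per gene and library totals of 13563594 to 23642949 fragments. In genes seen in few libraries such a search can hardly fail, so the 100.0% is no check of their fragments. A count of 0 allows 3 fragments, or 0.0634 to 0.111 FPKM on a transcript of 2000 bases, and this floor covers counting error only.

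The test was limma 3.58.1 (R 4.3.3) on log2(FPKM + 1) with an intensity trend over the 13115 genes that averaged 0.5 FPKM or more, Benjamini-Hochberg adjusted over all of them and called at an adjusted p under 0.05. Each comparison used its own 6 mice, and the interaction used all 12. Single genes under the filter were compared by an exact permutation test. Alternatives were a pseudocount of 0.1, a filter of 1 FPKM or none, TPM, TPM without immunoglobulin genes, median centring, limma's voom with TMM factors on the recovered fragments, 1 fit over all mice, a replicate block and leaving out each mouse. The fits were tested on simulated data. Transcript likeness was searched with BLAST+ 2.17.0.

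The members and gene lists were chosen with earlier results of these data known. Named genes are the 8 members, the 10 of the wider list with the smallest adjusted p (Bhlhe40, Nfil3, Foxp3, Hif1a, Maf, Batf, Egr2, Tmem176a, Capg and Il10) and the markers that moved. Also named are the 3 genes most correlated with each tested member, among the genes kept in that ranking. Other genes of the wider list were named after their values were seen. Of the wider list, 1 gene is not reported here.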

Additional observations from a re-analysis of the deposited data

Results flagged for a closer look

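Among the 46 tested genes of the wider Th17 list, 5 differed between the strains in their response to anti-CD45RB, tested as the interaction term over all 12 mice, where 3.64% of all genes tested were called. Tmem176a had an interaction of -1.86 on the log2 scale (adjusted p = 0.00453, limma), from 1.07 in B6 and -0.79 in SLE123. Tmem176b had -1.83 (adjusted p = 0.0132, limma), from 1.12 in B6 and -0.72 in SLE123. Serpinb1a, a protease inhibitor, had -0.91 (adjusted p = 0.0248, limma), from 0.67 and -0.24. Ltb4r1, a leukotriene B4 receptor, had -0.89 (adjusted p = 0.0248, limma), from 0.69 and -0.2. Abcb1b, a drug efflux pump, had 0.67 (adjusted p = 0.0479, limma), from -0.71 in B6 and -0.036 in SLE123. The SLE123 values alone were not called for any of these genes. In the same fit, 5 of 5 tested myeloid markers (median -2.88), 5 of 7 basophil markers (median -1.67) and 3 of 7 tested B cell markers (median -2.6) were called lower and 0 of them higher, and their part in these differences was not tested. The count of 5 became 15 without SLE123 untreated replicate 1, 3 without B6 treated replicates 3 or 5 or SLE123 treated replicates 1 or 3, and 2 without B6 untreated replicates 3 or 4 or SLE123 treated replicate 2.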

How the results depend on the processing

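The count of the 4 tested members called in B6, 2 with the settings described above, was 1 with all 12 mice in 1 fit and 0 to 2 without single mice. For the response in SLE123 minus that in B6 it was 0 to 1 without single mice. For the wider list, the B6 count of 14 was 6 with no filter and 6 to 13 without single mice, and the interaction count of 5 was 3 with no filter and 2 to 15 without single mice. The interaction of Rora (0.079) was -0.011 to 0.17 without single mice, with -0.011 without B6 untreated replicate 4 and -0.0093 without SLE123 untreated replicate 2. That of Il1r1 (0.11) was -0.16 with a pseudocount of 0.1 FPKM, -0.35 with voom and -0.037 to 0.24 without single mice, with -0.00098 without B6 treated replicate 5 and -0.037 without SLE123 untreated replicate 2. The cause of these changes was not tested. Of the values of members and named genes, 244 of 250 kept direction and side of the threshold in the other settings and 191 of 204 without single mice. These totals hold the 10 named genes of the wider list only in the comparison with their smallest adjusted p. Without single mice their adjusted p stayed at 0.00054 or below (limma), so they could hardly lose a call. The totals therefore do not describe the B6 calls of Ccr6 and Ahr, whose adjusted p reached 0.0613 and 0.0778 (limma).

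The deviations of same-numbered mice from their group means had correlations of -0.14 and -0.0936 in B6, and of 0.137, -0.161 and 0.266 in SLE123. So few values from groups of 3 mice cannot exclude a pairing, and no title says what the numbers mean. The main fits treated the mice as unpaired. With the replicate block, 0 members were called in B6 (Ccr6 0.56, adjusted p = 0.234; Ahr 0.4, adjusted p = 0.228, limma), 0 genes of the wider list in B6 and 1 in the interaction. Over all genes the block gave 0 calls in B6, with 2466 at an unadjusted p under 0.05, 34 against 478 in the interaction and 3414 against 6836 between treated strains. No paired analysis was possible between untreated strains, because they share only 1 number.

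Over all genes, the 1948 calls in B6 were 1134 with no filter, 815 in 1 fit over all mice and 675 without B6 untreated replicate 4. The 5 in SLE123 were 21 with TPM, 53 in 1 fit over all mice and 3 with voom or with TPM without immunoglobulin genes. The 478 of the interaction were 308 with TPM without immunoglobulin genes and 2917 without SLE123 untreated replicate 1. TPM moved the median of all genes in the SLE123 treatment comparison to 0.22. Depth limits Il17f and Il23r, whose 0 to 12 fragments a library leave a wide counting error.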
